A study of Mus musculus with 7 samples.

Results

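The genes of the synaptic vesicle cycle and its release machinery were followed in endpoint tumors of a mouse glioma model. They are 44 genes taken from a fixed list of 11 families, out of 19257 genes in the table, and the rule names the genes without a threshold on measured values, although the list was drawn up with earlier results of these data known. In this model, embryonic forebrain progenitors were electroporated in utero with a single construct that carried Cas9 and guides against tumor suppressors, Trp53 and Nf1 among them, together with a piggyBac transposon that marked the transfected cells with GFP. All 7 brains received this, and the tumors that received nothing more form the 3xCR group (labelled genotype control, 3 libraries, replicates 2, 3 and 4). The GPC6 group (4 libraries, replicates 1 to 4) also received a piggyBac transposon that overexpresses GPC6, a glypican that astrocytes secrete and that is known to promote excitatory synapse formation. The animals were of CD-1 and C57BL/6 background and of both sexes, and the sex, background and age of the animal behind each library are not given in the sources used here. Fluorescent tissue was dissected under a microscope at endpoint, so that each library is the poly(A) RNA of a piece of 1 brain and holds tumor cells together with host neurons, glia and vessels.

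A presynaptic terminal fills vesicles with transmitter, docks them at the active zone, primes them, and fuses them with the membrane when calcium enters. Fusion is driven by SNARE proteins, timed by synaptotagmins and complexins, and placed by Rim, Munc13, Bassoon and Piccolo scaffolds. Synapsins hold a reserve of vesicles, Rab3 proteins mark those that are ready to dock, and dynamin and amphiphysin retrieve the membrane afterwards. Most of these proteins come in families of close relatives, called paralogs, that are used by different neurons. In a glioma, RNA of these genes can come from neurons in the dissected tissue or from tumor cells, and bulk RNA does not separate them.

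The libraries held 7197692 to 18879762 reads on genes, and all values below are normalized counts, in which the counts of each library were divided by a size factor of 0.647 to 1.82. Gpc6 itself, the gene added in the GPC6 group, was present at 217, 226 and 126 normalized counts in the 3xCR libraries and at 675, 263, 3434 and 5084 in GPC6 replicates 1 to 4. Every GPC6 library was above every 3xCR library, although the library labelled GPC6 replicate 2 lay close to the 3xCR libraries. Whether the transcript of the transposon is counted as mouse Gpc6 is not given in the sources used here. The labels call the tissue brain and the cells neural, and all 18 genes of a pan-neuronal list, among them Rbfox3, Map2 and Tubb3, were above 0 in every library.

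The mean of log2(normalized count + 1), which is the mean meant below unless normalized counts are named, was larger in GPC6 than in 3xCR for 43 of 44 release machinery genes, and for 48.3% of the 14782 genes tested. The exception was Syt4, whose mean normalized count was nevertheless larger in GPC6 (1163 against 1071), as it was for all 44 genes. The median log2 fold change of the 44 genes was 1.54, beside -0.019 for all genes tested. Tumors of 1 group differed greatly, however, and the median standard error was 0.97 on the log2 scale. With limma on log2(normalized count + 1) and Benjamini-Hochberg adjustment over all genes tested, 0 of the 44 genes passed an adjusted p of 0.05, as did 0% of all genes tested, with adjusted p-values from 0.730 to 0.927. At an unadjusted p under 0.05, 11 of the 44 were higher and 0 lower, where 2.74% of all genes tested were higher and 1.92% lower, and the 95% interval of the fold change spanned 0 for the other 33. On whole reads, edgeR placed 18 of the 44 and DESeq2 35 of the 44 above 3xCR at an unadjusted p under 0.05, with backgrounds of 3.75% and 6.77%, and neither gave an adjusted p under 0.05 to any of them, as with 0% and 0.0209% of all genes they tested. In these bulk libraries, fewer cells of a type and less RNA per cell cannot be told apart.

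The values of single libraries show how the groups overlap. Every GPC6 library was above every 3xCR library for Syt2, Sv2c and Amph, which is 3 of 44 against 2.8% of all genes tested. GPC6 replicate 1 was the highest library for 36 of the 44 genes, where 31.3% of all genes tested were highest there. GPC6 replicate 3 was highest for 5 more, and these same replicates 1 and 3 were the highest pair for 40 genes. At the other end, 3xCR replicate 4 was the lowest library for 32 genes, beside 22.2% of all genes tested. GPC6 replicate 1 lay above every 3xCR library for 43 genes and replicate 3 for 42, but replicate 4 did so for 14 and replicate 2 for 11. GPC6 replicate 2 was below 3xCR replicate 2 for 33 of the 44 genes, beside 50% of all genes tested.

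**Figure D1:**
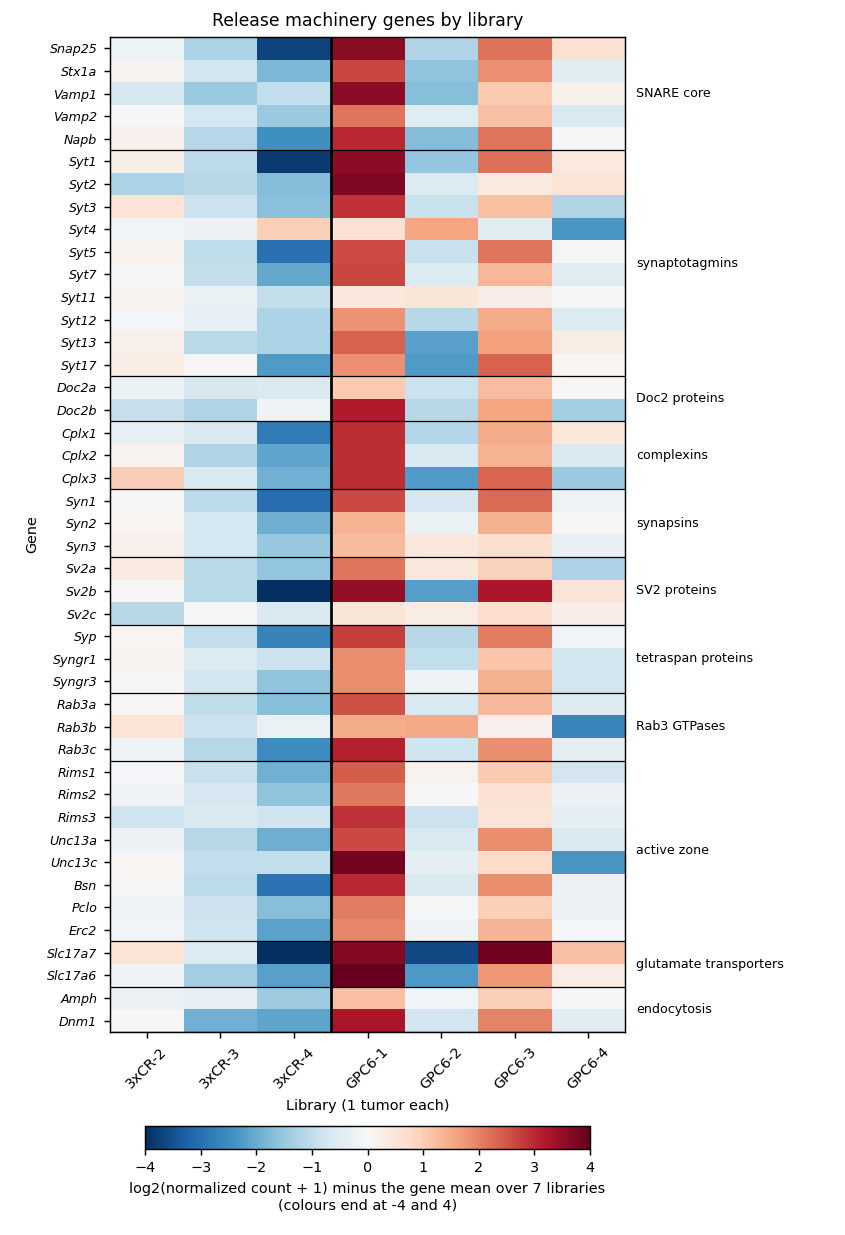
Heat map of the 44 release machinery genes (rows, grouped by family) in the 7 libraries (columns, 1 tumor each), with colour giving log2(normalized count + 1) minus the mean of the gene over the 7 libraries. GPC6 replicates 1 and 3 are the highest pair of libraries for 40 genes and 3xCR replicate 4 is the lowest library for 32, while Syt4, Syt11, Sv2c and Rab3b have patterns of their own.

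Summed over the 44 genes, the release machinery took 0.302%, 0.175% and 0.0955% of the normalized counts of the 3xCR libraries. It took 1.45%, 0.250%, 0.876% and 0.273% in GPC6 replicates 1 to 4. GPC6 replicates 2 and 4 thus lay between 3xCR replicates 2 and 3, while replicates 1 and 3 lay above all other libraries. Without GPC6 replicate 1, the median log2 fold change of the 44 genes was 0.97, and 3 of them were higher at an unadjusted p under 0.05 (1.37% of all genes tested). Without both GPC6 replicate 1 and 3xCR replicate 4, a pair chosen after the values were seen, the median was 0.59 with 1 such gene (0.433%). Without GPC6 replicate 2 it was 2.04, and 28 of the genes were then higher at an unadjusted p under 0.05 (6.26%). There were 18 such genes without 3xCR replicate 2 (4.28%), 18 without GPC6 replicate 4 (5.17%), 2 without 3xCR replicate 3 (1.14%), and 1 each without 3xCR replicate 4 (0.379%) or GPC6 replicate 3 (0.994%). The share of all genes tested was likewise largest without GPC6 replicate 2 and, of the fits without 1 library, smallest without 3xCR replicate 4. Without 3xCR replicate 2, 21 of the 44 genes had groups that did not overlap, where 10.3% of all genes tested did. Without GPC6 replicate 2 there were 14 (background 7.94%) and without GPC6 replicate 4 there were 9 (6.61%). The number remained 3 without 3xCR replicate 3 (4.88%), 3xCR replicate 4 (3.64%), GPC6 replicate 1 (3.84%) or GPC6 replicate 3 (4.37%). Without GPC6 replicates 1 and 2, also chosen after the values were seen, 15 of the 44 had groups that did not overlap (23.6% of all genes tested, in either direction) and 11 were higher at an unadjusted p under 0.05 (3.42%).

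The score of a pan-neuronal list moved with that of the release genes, although not every gene of the list did. All 18 pan-neuronal genes had a higher mean in GPC6, 3 of them at an unadjusted p under 0.05 (2.74% of all genes tested) and 0 at an adjusted p under 0.05 (limma). Their summed level ranged from 12317 to 20840 normalized counts in the 3xCR libraries and from 19382 to 70271 in the GPC6 libraries. The score of this list, the mean log2 value of its genes minus their mean over the 7 libraries, was -0.15, -0.64 and -1.35 in the 3xCR libraries and 1.89, -0.79, 1.16 and -0.10 in the GPC6 libraries. The same score over the 44 release genes was -0.042, -0.85 and -1.87 in 3xCR and 2.47, -0.78, 1.44 and -0.37 in GPC6. Both scores were highest in GPC6 replicate 1, next in GPC6 replicate 3 and lowest in 3xCR replicate 4. Some pan-neuronal genes departed from this order. Gap43 and Ncam1 were highest in GPC6 replicate 2, at 3348 and 4711 normalized counts. Stmn2 and Tubb3 had their highest 3xCR value in replicate 4, at 1776 and 1316.

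Markers of particular regions and cell types also differed between the libraries. Genes of cortical excitatory neurons, a list of 9, scored 0.42, -0.59 and -3.52 in 3xCR and 3.48, -2.55, 2.17 and 0.59 in GPC6, with summed levels of 156 to 2479 and 830 to 28867 normalized counts, and Tbr1, Neurod6 and Emx1 were at 0 in at least 1 library. Striatal genes, also 9, were higher on average in GPC6 in all 9 cases, with sums of 768 to 2753 in 3xCR and 699 to 21919 in GPC6. GPC6 replicate 1 held some hypothalamic transcripts that the other libraries nearly lacked, with Avp at 541 normalized counts against at most 7.10 elsewhere. The sum of the 9 hypothalamic genes was 16.7 to 31.8 in 3xCR and 25.7 to 1196 in GPC6. Sim1 and Otp were at 0 in every other library but rested on few reads in GPC6 replicate 1, at 4.64 and 9.27. Pomc did not stand out, at 24.7 in GPC6 replicate 1 and 12.1 to 20.3 elsewhere, and Trh was at 158 there but also at 32.8 in GPC6 replicate 3. The same GPC6 replicate 1 was the lowest library for all 15 proliferation genes, with Mki67 at 130 normalized counts where the others had 950 to 1876, and the summed level of that list was 8144 to 17673 in 3xCR and 1116 to 19952 in GPC6. Choroid plexus genes, a list of 7, summed to 218 to 3765 in 3xCR and 66.9 to 12630 in GPC6, again highest in GPC6 replicate 1. Microglial genes were lower on average in GPC6 for all 8 of the list, 4 of them at an unadjusted p under 0.05 (limma, 1.92% of all genes tested) and 0 at an adjusted p under 0.05. Their sums were 28647 to 51933 in 3xCR and 15229 to 25782 in GPC6. The part of regional tissue in the release gene values was not tested; the pan-neuronal level was entered as a covariate, as given further on.

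**Figure D2:**
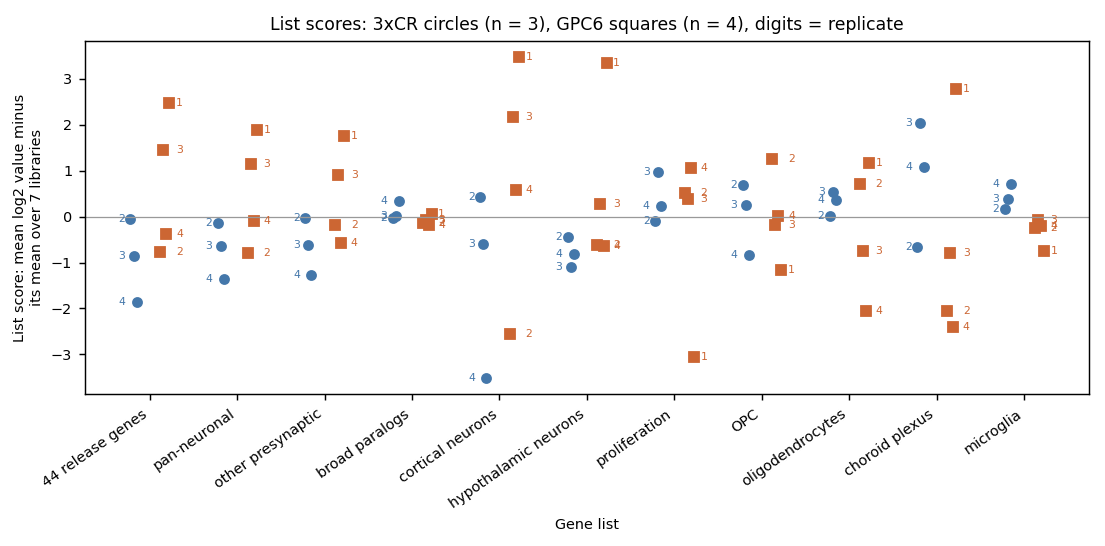
Scores of gene lists in each library (vertical axis), for the 44 release genes and 10 other lists (horizontal axis). A score is the mean log2(normalized count + 1) of all genes of the list found in the data, tested or not, minus their mean over the 7 libraries. Circles are 3xCR (n = 3), squares are GPC6 (n = 4), and the replicate number stands beside each point. The release genes, pan-neuronal genes and other presynaptic genes place GPC6 replicates 1 and 3 at the top and 3xCR replicate 4 at the bottom, whereas the broadly expressed paralogs stay within -0.18 and 0.33.

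Many presynaptic genes carry the RE1 element, to which the repressor REST binds outside neurons, and the promoters of the members were searched for it because the genes varied together. RefSeq promoter windows (GRCm38.p6, 250 bases before to 50 after each start) were at hand for 31 of the 44 genes, 39 windows in all. A match was CAGCACC, then 2 bases of any kind, then GGACAG, on either strand, with at most 2 mismatches in the 13 letters compared. Such a match lay in 3 of the 39 windows (7.69%), those of Syt2, Slc17a6 and Syn1, and in 632 of 32851 windows of all genes (1.92%). The second block, GGACAG, lay unbroken in 10 of the 39 windows and in 22.2% of all windows, and the first, CAGCACC, in 3 of the 39 and in 7.14% of all. The cyclic AMP response element TGACGTCA lay in 1 member window, that of Syn1, and in 1.79% of all. The 3 matches are printed 5′ to 3′ along the strand of the gene, with the RE1-like match in capitals and, in Syn1, the cyclic AMP response element in capitals too.
Syt2, plus strand, chr1:134646362-134646611: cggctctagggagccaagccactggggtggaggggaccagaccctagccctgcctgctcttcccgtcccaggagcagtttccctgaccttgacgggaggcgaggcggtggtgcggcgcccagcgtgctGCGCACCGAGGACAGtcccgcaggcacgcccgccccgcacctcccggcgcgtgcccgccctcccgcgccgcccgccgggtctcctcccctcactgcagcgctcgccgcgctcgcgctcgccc
Slc17a6, plus strand, chr7:51621851-51621879: tccttagcttcctCTGTCCGTGGTCCTGa
Syn1, minus strand, chrX:20921005-20921168: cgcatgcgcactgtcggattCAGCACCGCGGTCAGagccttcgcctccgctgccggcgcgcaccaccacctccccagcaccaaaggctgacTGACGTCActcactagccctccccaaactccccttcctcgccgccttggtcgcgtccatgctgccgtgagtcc
The match in Syt2 ran from -122 to -108 relative to the start and had 2 mismatches, that in Syn1 ran from -230 to -216 and had 1, and that in Slc17a6 lay just after the start, on the opposite strand, with 1. These 3 genes differed in level, since Syn1 belongs to the abundant members and both others to the rare ones. Their log2 fold changes were 2.40 ± 0.97 for Syt2, 2.17 ± 1.36 for Slc17a6 and 2.36 ± 1.02 for Syn1 (SE). Unc13a and Sv2b, whose windows held no such match, were at 1.92 ± 0.88 and 2.94 ± 1.51 (SE). GPC6 replicate 1 was the highest library for each of the 3 genes, as for 36 of the 44 and 31.3% of all genes tested. A link between the match and these values was not tested. A match is a run of letters and no measured binding.

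The SNARE core was represented by the membrane SNAREs Snap25 and Stx1a, the vesicle SNAREs Vamp1 and Vamp2, and Napb, a brain form of the SNAP adaptor that helps take spent SNARE complexes apart. All 5 had a higher mean in GPC6, with log2 fold changes of 1.27 to 3.02 and a median of 1.81. An unadjusted p under 0.05 was reached by 1 of 5, beside 2.74% of all genes tested that were higher (limma). Snap25 (chromosome 2, 136713453 to 136782428, GRCm38) had 1440, 681 and 126 normalized counts in the 3xCR libraries, always in the order of their replicate numbers, and 20138, 708, 7469 and 2490 in the GPC6 libraries. GPC6 replicate 2 lay inside the 3xCR range and the other GPC6 libraries above it. Its log2 fold change, 3.02 with a standard error of 1.21, was the largest of the 44 genes (limma, adjusted p = 0.730). Vamp2, the main vesicle SNARE of the forebrain, had 2143, 1323 and 761 in 3xCR and 9371, 1514, 4786 and 1403 in GPC6, where GPC6 replicates 2 and 4 fell below 3xCR replicate 2. This gave a log2 fold change of 1.27 ± 0.71 (SE). Vamp1, which serves fast synapses of the brainstem and spinal cord, had 111, 61.4 and 85.6 in 3xCR and 2068, 52.4, 359 and 192 in GPC6. Only 1 GPC6 library lay far outside the rest here, replicate 1, and the smallest value was also a GPC6 one. Per kilobase of exon, Vamp1 made up 1.71% to 4.05% of the pair in 3xCR and 1.28% to 7.64% in GPC6, so that Vamp2 was the main form in every tumor. Stx1a and Napb had log2 fold changes of 1.42 ± 1.02 and 2.00 ± 1.14 (SE) and overlapping groups.

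Synaptotagmins were the largest family, with 10 members and higher mean log2 values in GPC6 for 9 of them. Their median log2 fold change was 1.21. Syt1, the calcium sensor of fast release in forebrain neurons, had 1137, 464 and 66.3 normalized counts in 3xCR and 11561, 329, 4408 and 1247 in GPC6, a 174-fold span between the highest and the lowest library. GPC6 replicate 2 lay inside the 3xCR range, and the log2 fold change was 2.70 ± 1.33 (SE; limma, adjusted p = 0.730). Syt2 (chromosome 1, 134646677 to 134762593), the fast sensor of brainstem and inhibitory neurons whose promoter is printed above, had 9.87, 11.2 and 6.91 in 3xCR and 351, 16.8, 33.7 and 37.0 in GPC6. It was 1 of the 3 genes whose groups did not overlap, and is given here for that reason, after its values were seen. The log2 fold change was 2.40 ± 0.97 (SE; adjusted p = 0.730, limma), and GPC6 replicate 1 stood far above the other GPC6 libraries.

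Syt11 and Syt4 departed from the common order of the libraries. Syt11, which does not bind calcium and is also expressed in glia, had 6989, 5458 and 3381 normalized counts in 3xCR and 8710, 9069, 7804 and 6439 in GPC6. It had the highest mean normalized count of the synaptotagmins, although Syt1 was above it in GPC6 replicate 1, and the narrowest range of the family, with a 2.68-fold span over the 7 libraries, and GPC6 replicate 4 fell below 3xCR replicate 2. This gave a log2 fold change of 0.65 ± 0.30 (SE; limma, adjusted p = 0.730). Syt4, an activity-regulated relative found on dense-core vesicles, had 802, 730 and 1681 in 3xCR and 1292, 2559, 628 and 172 in GPC6. Here GPC6 replicate 2 was the highest library and GPC6 replicate 4 the lowest, and the log2 fold change was -0.36 ± 0.84 (SE; adjusted p = 0.905, limma). Syt4 took a positive sign with edgeR (0.11) and with DESeq2 (0.13), so that its direction is not set by these data.

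Within the family, per kilobase of exon, Syt11 held 55.3% to 72.0% of the synaptotagmin level in the 3xCR libraries and 31.8%, 67.6%, 45.6% and 71.3% in GPC6 replicates 1 to 4. Syt1 held 6.67%, 3.82% and 0.677% in 3xCR and 26.4%, 1.53%, 16.1% and 8.61% in GPC6. Syt4 held 10.1%, 12.9% and 36.8% in 3xCR, and 6.31%, 25.5%, 4.90% and 2.54% in GPC6. The libraries with the smallest part of Syt1, 3xCR replicate 4 and GPC6 replicate 2, were thus those with the largest part of Syt4. Among the rest, the sensor of dense-core vesicles Syt5 had a log2 fold change of 2.24 ± 1.02 (SE) and Syt7, the slow sensor of asynchronous release, 1.74 ± 0.85. Syt3, Syt12, Syt13 and Syt17 lay between 0.95 and 1.25, each with a standard error near its own size. The Doc2 proteins, sensors of asynchronous and spontaneous release, had log2 fold changes of 0.85 ± 0.51 for Doc2a and 1.34 ± 1.09 for Doc2b (SE). Doc2a had 112, 85.6 and 88.4 normalized counts in 3xCR and 274, 73.1, 313 and 139 in GPC6, and Doc2b had 29.1, 24.2 and 49.7 in 3xCR and 519, 25.7, 169 and 21.6 in GPC6. In both, GPC6 replicates 1 and 3 stood above all 3xCR libraries and GPC6 replicate 2 did not.

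**Figure D3:**
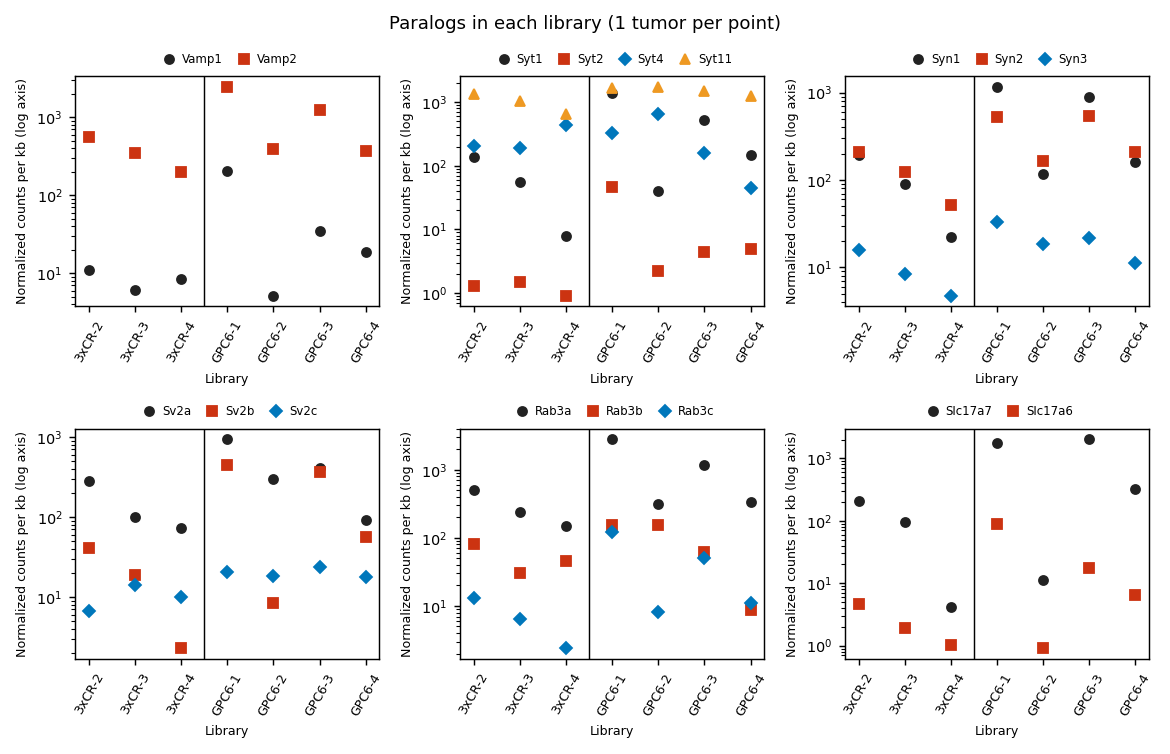
Levels of paralogs in each of the 7 libraries, as normalized counts per kilobase of exon on a log axis, for Vamp, synaptotagmin, synapsin, SV2, Rab3 and vesicular glutamate transporter genes, with 1 point per gene and tumor and a vertical line between 3xCR and GPC6. Syt11 and Sv2c span 2.68-fold and 3.52-fold while Syt1 and Sv2b span 174-fold and 195-fold, and Syn1 lies above Syn2 in GPC6 replicates 1 and 3 alone.

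Complexins clamp the assembled SNARE complex and help it to fire on calcium. All 3 had a higher mean in GPC6, with 0 of them at an unadjusted p under 0.05, beside 2.74% of all genes tested that were higher (limma). Cplx2, found widely in excitatory neurons, had 1588, 625 and 334 normalized counts in 3xCR and 11170, 943, 3823 and 971 in GPC6, a log2 fold change of 1.85 ± 0.94 (SE). Cplx1 had 761, 613 and 134 in 3xCR and 7124, 410, 2601 and 1230 in GPC6, a log2 fold change of 2.14 ± 0.99 (SE; limma, adjusted p = 0.730). For both, GPC6 replicates 1 and 3 were above every 3xCR library, and GPC6 replicate 4 was so for Cplx1 alone. Cplx3, the form of retinal and some cortical neurons, was rare, with 26.9, 8.37 and 2.76 in 3xCR and 108, 1.98, 70.1 and 4.12 in GPC6. The smallest of these values rests on 2 reads. Its log2 fold change was 0.90 ± 1.44 (SE), and its level was at most 1.34% of the family per kilobase in each library.

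Synapsins, which tether vesicles of the reserve pool, were the family in which all members, 3 of 3, had an unadjusted p under 0.05 (limma). Of all genes tested, 2.74% were higher in GPC6 at this threshold, and the number of members that passed it changed with the libraries used. Syn1 (chromosome X, 20860511 to 20921004), whose promoter holds both motifs, had 633, 300 and 73.2 normalized counts in 3xCR and 3849, 383, 2976 and 534 in GPC6. GPC6 replicates 2 and 4 lay inside the 3xCR range, and the log2 fold change was 2.36 ± 1.02 (SE; limma, adjusted p = 0.730). Syn2 had 1490, 868 and 362 in 3xCR and 3676, 1175, 3822 and 1460 in GPC6, a log2 fold change of 1.51 ± 0.60 (SE; adjusted p = 0.730, limma). Syn3, the least abundant form and one that is prominent early in development, had 195, 104 and 58.0 in 3xCR and 407, 226, 263 and 138 in GPC6, a log2 fold change of 1.18 ± 0.50 (SE; adjusted p = 0.730, limma). For Syn3 the GPC6 replicates 1, 2 and 3 were above every 3xCR library and replicate 4 was not. Per kilobase, Syn1 made up 45.7%, 40.8% and 28.3% of the synapsins in 3xCR and 67.7%, 38.5%, 61.5% and 42.5% in GPC6, with Syn2 taking most of the remainder.

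The SV2 proteins are glycosylated transporter-like proteins of the vesicle membrane, and Sv2a is the binding site of the antiseizure drug levetiracetam. Sv2a had 1291, 470 and 337 normalized counts in 3xCR and 4371, 1367, 1895 and 426 in GPC6, a log2 fold change of 1.33 ± 0.78 (SE). GPC6 replicates 1, 2 and 3 were above every 3xCR library and replicate 4 was among them. Sv2b had 346, 157 and 19.3 in 3xCR and 3764, 71.1, 3106 and 475 in GPC6, a 195-fold span, with a log2 fold change of 2.94 ± 1.51 (SE; limma, adjusted p = 0.730). Sv2c (chromosome 13, 95954594 to 96132577), a form enriched in the basal ganglia, had 65.8, 139 and 96.7 in 3xCR and 201, 179, 232 and 175 in GPC6. The groups did not overlap, and the GPC6 libraries lay close together, at 197 ± 26.0 against 100.4 ± 36.6 normalized counts (SD, n = 4 and 3). With a log2 fold change of 1.02 ± 0.31 (SE), Sv2c had the smallest p of the 44 genes (limma, adjusted p = 0.730). It did not follow the order of the libraries that most release genes shared, since 3xCR replicate 2, the highest 3xCR library for most of them, was the lowest library for Sv2c. Per kilobase, Sv2b was 12.6%, 14.0% and 2.72% of the family in 3xCR, and 31.8%, 46.1% and 34.0% in GPC6 replicates 1, 3 and 4, but 2.64% in GPC6 replicate 2.

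Among the vesicle proteins with 4 membrane spans, Syp (synaptophysin), a standard marker of terminals, had 1703, 807 and 251 normalized counts in 3xCR and 11030, 743, 6624 and 1510 in GPC6. GPC6 replicates 2 and 4 were below 3xCR replicate 2, and the log2 fold change was 2.10 ± 1.02 (SE; limma, adjusted p = 0.730). The synaptogyrins, relatives of synaptophysin, were steadier. Syngr1 had 1545, 993 and 800 in 3xCR and 5263, 729, 3099 and 865 in GPC6, a log2 fold change of 0.74 ± 0.70 (SE). Syngr3 had 369, 223 and 120 in 3xCR and 1332, 323, 997 and 216 in GPC6, a log2 fold change of 1.36 ± 0.69 (SE). Their log2 ratio, Syngr3 over Syngr1, was -2.06, -2.15 and -2.72 in 3xCR and -1.98, -1.17, -1.64 and -2.0 in GPC6. These groups did not overlap, although 3xCR replicate 2 and GPC6 replicate 4 were nearly level, and the difference of 0.62 had a two-sided exact permutation p of 0.057, the smallest that 3 against 4 libraries can give.

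Rab3 proteins are small GTPases that bind Rim on the vesicle side. Rab3a, the main form, had 1119, 527 and 331 normalized counts in 3xCR and 6291, 698, 2646 and 740 in GPC6, a log2 fold change of 1.56 ± 0.82 (SE). Rab3c had 156, 76.3 and 29 in 3xCR and 1468, 96.8, 613 and 132 in GPC6, a log2 fold change of 2.20 ± 1.01 (SE; limma, adjusted p = 0.730). For both genes GPC6 replicates 2 and 4 were inside the 3xCR range. Rab3b, used in inhibitory and endocrine cells, had 282, 106 and 160 in 3xCR and 543, 552, 219 and 30.9 in GPC6, with GPC6 replicate 4 as the lowest library. For Rab3b the log2 fold change was 0.34 ± 0.97 (SE) and took a negative sign without GPC6 replicate 1 (-0.11) or replicate 2 (-0.12). Per kilobase, Rab3b made up 13.4%, 11.0% and 23.1% of the Rab3 level in 3xCR and 4.96%, 32.7%, 4.78% and 2.49% in GPC6. As with Syt4, its part was largest in GPC6 replicate 2 and 3xCR replicate 4.

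The active zone was covered by 8 scaffold and priming genes, all with a higher mean in GPC6. An unadjusted p under 0.05 was reached by 4 of them, Rims2, Bsn, Pclo and Erc2, beside 2.74% of all genes tested that were higher (limma). Their median log2 fold change was 1.62. Bsn (Bassoon), a giant scaffold, had 309, 157 and 41.4 normalized counts in 3xCR and 2657, 215, 1174 and 277 in GPC6, a log2 fold change of 2.37 ± 1.00 (SE; limma, adjusted p = 0.730). GPC6 replicates 2 and 4 were again inside the 3xCR range. Its partner Pclo (Piccolo) had 230, 146 and 80.1 in 3xCR and 1100, 252, 505 and 220 in GPC6, where only GPC6 replicate 4 was below a 3xCR library. Piccolo had a log2 fold change of 1.58 ± 0.61 (SE; adjusted p = 0.730, limma). Erc2 (CAST), which ties Rim to Bassoon, had 1.78 ± 0.66 (SE; adjusted p = 0.730, limma), and its lowest GPC6 library, at 315, was just below the highest 3xCR library, at 328. The Rim genes, which gather calcium channels and primed vesicles, had log2 fold changes of 1.66 ± 0.77 (Rims1), 1.41 ± 0.60 (Rims2) and 1.25 ± 0.85 (Rims3; all SE).

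The Munc13 genes open syntaxin for SNARE assembly. Unc13a (Munc13-1), the form that most forebrain synapses need, had a log2 fold change of 1.92 ± 0.88 (SE). Unc13c (Munc13-3), known from the cerebellum, had 58.6, 27.9 and 27.6 normalized counts in 3xCR and 801, 42.5, 94.9 and 10.3 in GPC6. The high mean of Unc13c in GPC6 rested on replicate 1, and replicate 4 was the lowest of all 7 libraries. Its log2 fold change of 1.10 ± 1.27 (SE) was the smallest of the active zone group and was -0.023 without GPC6 replicate 1.

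Vesicular glutamate transporters fill vesicles with glutamate and mark excitatory neurons, Slc17a7 (VGLUT1) in cortex and hippocampus and Slc17a6 (VGLUT2) in thalamus, hypothalamus and brainstem. Slc17a7 had 1107, 524 and 22.1 normalized counts in 3xCR and 9631, 61.3, 10980 and 1715 in GPC6. It spanned 497-fold over the 7 libraries, the widest of the 44 genes, with 3xCR replicate 4 and GPC6 replicate 2 far below the rest. Its log2 fold change was 2.95 ± 2.00 (SE; limma, adjusted p = 0.731), so that the difference between means of 551 and 5597 normalized counts was within the spread between tumors. Slc17a6 (chromosome 7, 51622006 to 51671119), with the RE1-like match printed above, had 25.2, 10.2 and 5.52 in 3xCR and 478, 4.94, 95.8 and 35 in GPC6. GPC6 replicate 2 was the lowest library and GPC6 replicate 1 the highest. The log2 fold change of Slc17a6 was 2.17 ± 1.36 (SE). Per kilobase, Slc17a6 made up 2.22%, 1.91% and 20% of the pair in 3xCR and 4.72%, 7.45%, 0.864% and 2.00% in GPC6, so that VGLUT1 was the main form in every tumor. The 20% in 3xCR replicate 4 rests on 4 reads of Slc17a6 and 16 of Slc17a7, and the 7.45% in GPC6 replicate 2 likewise on few reads of Slc17a6.

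Membrane retrieval was represented by Dnm1 (dynamin 1), the neuronal GTPase that cuts vesicles from the membrane, and Amph (amphiphysin), which recruits it. Dnm1 had 1215, 326 and 287 normalized counts in 3xCR and 11871, 742, 4924 and 906 in GPC6, a log2 fold change of 2.37 ± 1.03 (SE; limma, adjusted p = 0.730). GPC6 replicates 2 and 4 lay between the 3xCR libraries. Amph (chromosome 13, 18948205 to 19150921) had 800, 755 and 354 in 3xCR and 2190, 876, 1837 and 890 in GPC6. The groups did not overlap, but the gap between the highest 3xCR and the lowest GPC6 library was small beside the spread within GPC6. The log2 fold change of Amph was 1.15 ± 0.44 (SE; adjusted p = 0.730, limma).

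The pan-neuronal score ran close to the score of the release genes over the libraries. A fit with it as a covariate therefore removes most of a shift that the release genes share, whatever its source. When the pan-neuronal score of each library was added to the limma fit, the members no longer shared a direction. The median log2 fold change of the 44 genes was then 0.089, beside 0.0089 for all genes, with 26 of the 44 higher and 18 lower in GPC6, where 51.1% of all genes were higher. The 95% interval spanned 0 for 41 of the 44 genes. The remaining 3 were Sv2c, higher in GPC6 by 0.97 ± 0.39 (SE) on the log2 scale, and Stx1a and Cplx3, lower at -0.61 ± 0.26 and -1.82 ± 0.63. None of the 44 reached an adjusted p of 0.05 (limma, smallest adjusted p = 1.00), and 0.474% of all genes were higher and 1.75% lower at an unadjusted p under 0.05. All 3 synapsins kept a positive value (0.42 to 0.50), as did 6 of 8 active zone genes, whereas 4 of 5 SNARE core genes and both glutamate transporters were negative. These signs only describe the fit, since most of the intervals spanned 0, and differences between families were not tested. With the covariate, 11 of the 44 genes had log2 fold changes over 0.6 in size. Among them, Snap25, Syt2 and Sv2c were higher in GPC6, as they were without it. The others were lower and had changed sign, such as Cplx3, from 0.90 to -1.82. Sv2c had nearly the same value with and without the covariate, 0.97 and 1.02.

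**Figure D4:**
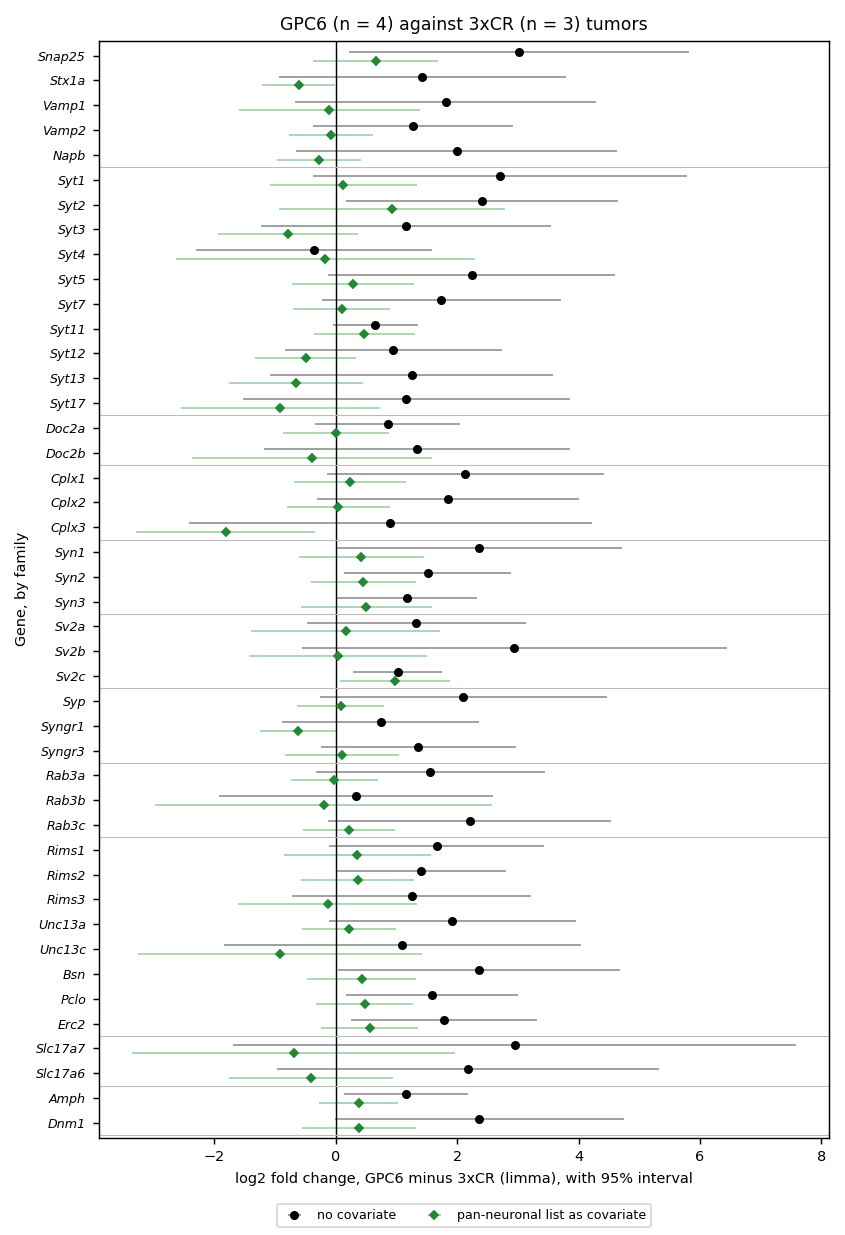
Log2 fold changes of the 44 release genes, GPC6 (n = 4) minus 3xCR (n = 3), from limma, with 95% intervals, without a covariate (circles) and with the pan-neuronal score as a covariate (diamonds), by family from top to bottom. Without the covariate 43 genes lie right of 0 and 33 intervals span it, and with the covariate 26 lie right of 0 and 41 intervals span it.

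The balance between paralogs was compared in 18 log2 ratios within a library. GPC6 had the higher mean in 7 and the lower in 11, and Syngr3 over Syngr1 was the 1 ratio whose groups did not overlap, beside 5.92% of all 946 pairs of members. Syn2 over Syn1 was 1.23, 1.53 and 2.29 in 3xCR and -0.066, 1.61, 0.36 and 1.45 in GPC6, lower by a mean of -0.85 in GPC6 (two-sided exact permutation test, p = 0.286). Rab3b over Rab3a differed by -1.22 (p = 0.343) and Sv2b over Sv2a by 1.61 (p = 0.400, two-sided exact permutation tests). In Sv2b over Sv2a, GPC6 replicate 2 was as low as 3xCR replicate 4, at -4.25 and -4.05.

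Other genes of the terminal formed a list of 30 that shares no gene with the 44. Single genes such as Syt15 and Rab3gap2 were highest in GPC6 replicate 2, at 230 and 1213 normalized counts. The score of the list, however, had the same high libraries as that of the 44 genes, GPC6 replicates 1 and 3. Of its 28 genes tested, 28 had a higher mean in GPC6 with a median log2 fold change of 1.05. At an unadjusted p under 0.05, 6 were higher and 0 lower (limma, smallest adjusted p = 0.730), beside 2.74% and 1.92% of all genes tested. The largest were Slc32a1, the vesicular GABA transporter, at 2.85 ± 1.04 (SE), and Rimbp2, which couples Rim to calcium channels, at 2.80 ± 0.92. Slc32a1 had 129, 46.5 and 19.3 normalized counts in 3xCR and 1754, 129, 592 and 124 in GPC6, so that the inhibitory transporter was also highest in GPC6 replicates 1 and 3. The smallest were Tprgl at 0.19 ± 0.37 and Syt15 at 0.13 ± 1.28. Cplx4 and Slc17a8 (VGLUT3) were too low to be tested.

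Paralogs of the same families that are expressed in many cell types were split in direction. Of 23 such genes tested, 9 had a higher and 14 a lower mean in GPC6, and the median log2 fold change was -0.29. Napg at 0.83 ± 0.42 and Snap47 at 0.81 ± 0.41 (SE) were the largest. The smallest were Syngr2 at -0.94 ± 0.50 and Vamp8, a SNARE of endosomes and secretory cells, at -1.20 ± 0.36 (SE; limma, adjusted p = 0.730). Vamp8 had 454, 565 and 1178 normalized counts in 3xCR and 229, 264, 300 and 397 in GPC6, with every GPC6 library below every 3xCR library, as for 3.52% of all genes tested. Vamp8 and Stx4a, the 2 genes of the list with an unadjusted p under 0.05 (limma), are both lower in GPC6, beside 1.92% of all genes tested. The microglial genes were lower there as well, and the part of microglia in the values of Vamp8 and Stx4a was not tested.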

How the data were processed

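Bulk poly(A) RNA-Seq libraries (TruSeq Stranded mRNA) of 7 tumors were used, 3 3xCR and 4 GPC6, grouped by their labels. The authors aligned reads to mm10 with STAR 2.5.0a, counted them with Rsamtools and GenomicFeatures, and deposited counts normalized with DESeq2 1.20.0, a signal per gene on a linear scale that is not corrected for length. Rules for reads shared by paralogs and the use of strand in counting are not given in the sources used here. Whole reads were recovered in 100% of values (within 0.01 read). Of 19282 entries, 25 with names turned into dates (0.254% to 0.361% of reads) were left out.

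Differences were tested with limma 3.58.1 (R 4.3.3, variance trend, two-sided, Benjamini-Hochberg) on log2(normalized count + 1) over 14782 genes with a mean of at least 10. Such fold changes understate those of low genes. Single ratios were tested with two-sided exact permutation tests of the difference of group means. edgeR 4.0.16, DESeq2 1.42.0 and voom on whole reads, other pseudocounts, filters and scalings, library weights, a replicate block and leaving out each library were alternatives. The smallest library limits rare genes, where 0 reads leave up to 4.64 normalized counts possible (3 reads, counting error only). Lengths are unions of GENCODE M21 exons. No source names litters, batches or days, so p-values measure only the spread between these samples.

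The members, lists and tests were chosen with earlier results of these data known. For each family, values per library are given for the gene of highest mean and of largest and smallest fold change, and for both genes of a ratio described in full. Of the 2 comparison lists, the 2 largest and 2 smallest fold changes are named. Any other gene named was picked with its values in view.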

Additional observations from a re-analysis of the deposited data

How the results depend on the processing

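With pseudocounts of 0.5 and 5, with no filter or a mean of at least 50, with equal totals or upper quartiles and with voom, all members tested kept the direction of their fold change and stayed without an adjusted p under 0.05. The number of members at an unadjusted p under 0.05, 11 in the report, was 7 without the variance trend (2.24% of all genes higher), 18 with edgeR (3.75%), 35 with DESeq2 (6.77%), 4 with voom (1.45%), 3 with the pan-neuronal covariate (1 higher, 0.474%, and 2 lower, 1.75%) and 42 with weights per library (arrayWeights, 18.4%). It ranged from 1 to 28 when a library was left out (0.379% to 6.26% of all genes), with 1 (0.433%) without both GPC6 replicate 1 and 3xCR replicate 4. The weights were 0.85, 8.71 and 0.49 for 3xCR replicates 2 to 4 and 0.30, 0.49, 4.47 and 0.42 for GPC6 replicates 1 to 4. The weighted fit thus leaned mostly on 1 tumor of each group, replicate 3 in both. Under these weights 1962 of all genes (13.3%) and 33 of the 44 members had an adjusted p under 0.05. No conclusion is drawn from these counts or from the 42 members above. DESeq2 gave 4 genes, none of them a member. The median log2 fold change of the members was 0.089 with the covariate and 0.97 to 2.04 when a library was left out. Groups did not overlap for 3 to 21 members when a library was left out and for 15 without GPC6 replicates 1 and 2 (23.6% of all genes), and for 1 to 5 of the paralog ratios when a library was left out (7.08% to 36% of all pairs of members). No source used here states that the replicate numbers pair the libraries. The deviations of libraries with the same number had correlations of -0.19, 0.12 and 0.30, which are too few values to show or exclude a pairing. With the replicate block, in which GPC6 replicate 1 stands alone, 9 members had an unadjusted p under 0.05 (2.21% of all genes higher), the median was 0.97, and Rab3b (-0.11) and Unc13c (-0.023) changed sign. With the covariate 17 members changed sign: Stx1a (-0.61), Vamp1 (-0.11), Vamp2 (-0.087), Napb (-0.28), Syt3 (-0.79), Syt12 (-0.50), Syt13 (-0.65), Syt17 (-0.91), Doc2b (-0.40), Cplx3 (-1.82), Syngr1 (-0.62), Rab3a (-0.023), Rab3b (-0.20), Rims3 (-0.13), Unc13c (-0.92), Slc17a7 (-0.69) and Slc17a6 (-0.42). Syt4 changed sign with edgeR (0.11) and with DESeq2 (0.13). When libraries were left out, singly or as pairs, the fold changes that changed sign ranged from -0.94 to 0.36 for Syt4 (-1.60 without GPC6 replicates 1 and 2), whose sign turned without 3xCR replicate 4 or GPC6 replicate 4, from -1.02 to 1.25 for Rab3b, from -0.20 to 2.03 for Unc13c, from -0.15 to 1.76 for Syt3, from -0.075 to 2.08 for Syt17 and from -0.65 to 1.78 for Cplx3. Rab3b and Unc13c turned without GPC6 replicate 1 and without GPC6 replicates 1 and 2 (Unc13c -0.16), Rab3b also without GPC6 replicate 2, and these and the remaining 3 without both GPC6 replicate 1 and 3xCR replicate 4. The fits without GPC6 replicates 1 and 2, and without GPC6 replicate 1 and 3xCR replicate 4, were chosen after seeing the data, and the cause of these changes was not tested. In a search for single libraries far from the rest of the GPC6 group, 0 of 62 values were singled out, where chance gives about 3.1. With only 4 libraries, of which replicates 1 and 3 were both high for most members, such a search could hardly single one out. No conclusion is drawn from it.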
